A study of Mus musculus with 23 samples.

Results

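The genes described here carry fatty acids into the cardiomyocyte and through beta-oxidation. They were chosen by symbol from a list of 37 genes of fatty acid uptake, activation, carnitine transport, oxidation and their regulators, and 36 of them were measured, out of 21892 named genes. Acsl1, a long-chain acyl-CoA synthetase, was not analysed here. A gene's value is the mean over its probes, with 27 of the 36 genes read by 1 probe, 8 by 2 and 1 by 3.

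Ventricular RNA of 23 male mice was hybridised to 2-colour arrays, 1 mouse per array, and the values are log2 ratios of heart RNA over pooled RNA from 5 organs (liver, brain, spleen, kidney and the heart itself). MR-Cardio mice carry a transgene that overexpresses the mineralocorticoid receptor, the nuclear receptor for aldosterone, in cardiomyocytes. The groups were 6 MR-Cardio mice and 5 non-transgenic Ctrl mice that received aldosterone, and 7 MR-Cardio mice and 5 Ctrl mice that went without, all labelled with a duration of 7 days. The promoter of the transgene, the number of founder lines, the dose of aldosterone and the age of the mice are not stated in the labels. A log2 ratio of 0 means equal signal in heart and pool, and a log2 difference of −1 between groups means that the ratio was lower by a factor of 2.

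Fatty acids are the main fuel of the adult heart. They are bound in the cytosol, joined to coenzyme A, passed into mitochondria as carnitine esters and shortened in a cycle of dehydrogenation, hydration, a further dehydrogenation and thiolysis. Many genes of this pathway are known targets of the nuclear receptor PPAR-alpha and of the coactivator PGC-1-alpha, and their lower expression is well known in hypertrophied and failing hearts.

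Nr3c2, the gene of the receptor, had log2 ratios of 2.54 to 4.83 (median 4.08) in MR-Cardio mice with aldosterone, against 0.03 to 0.43 (median 0.22) in Ctrl mice with aldosterone. Untreated MR-Cardio mice had 2.49 to 4.15 (median 2.75), against 0.18 to 0.55 (median 0.48) in untreated Ctrl mice, so the labels of genotype and the Nr3c2 ratios matched in all 23 mice. Heart genes lay above the pool on average (Myh6 at 1.80 and Tnnt2 at 1.64) and the neuronal gene Syt1 lay far below it (−8.29), while another neuronal gene, Snap25, had 0.88. The lowest correlation between any pair of arrays over all probes was 0.855. The spike-in controls showed 2 kinds of difference between arrays. Their slope was 1.00 to 1.03 on the arrays of MR-Cardio mice and 0.96 to 0.98 on those of Ctrl mice, and their mean ratio, taken relative to all arrays, was below −0.3 on 5 arrays, those of MR-Cardio mice 4 and 6 with aldosterone and of untreated MR-Cardio mice 3, 4 and 7.

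The fatty acid genes were lower in MR-Cardio than in Ctrl hearts when both received aldosterone. Of the 36 genes, 22 were lower, 1 was higher and 13 did not pass the test (limma, Benjamini-Hochberg adjusted p under 0.05 over all named genes). In the same comparison 14.4% of all named genes were lower and 10.7% higher. The median log2 difference was −0.48, with a range from −1.65 to 0.32, against a median of −0.04 over all named genes. In 15 of the 36 genes every MR-Cardio mouse with aldosterone lay below every Ctrl mouse with aldosterone, and in 0 above, against 9.82% and 6.26% of all named genes. Mouse 1 of the MR-Cardio group with aldosterone was the lowest of its group in 31 of the 36 genes. Without it 19 genes passed and the median difference was −0.37. With the mean spike-in ratio as a covariate 15 genes passed. Of all named genes 25.06% passed in the main fit, 23.38% without that mouse and 19.39% with the covariate.

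Fewer genes passed in untreated hearts. Of the 36 genes 3 were lower in untreated MR-Cardio than in untreated Ctrl hearts, 0 were higher and 33 did not pass, where 7.82% of all named genes were lower and 5.79% higher. The share of fatty acid genes called lower, 8.3%, was close to that of all named genes. The difference was below 0 in 29 of the 36 genes, with a median of −0.22 against −0.01 over all named genes. The median was −0.14 without Ctrl mouse 2, and 5 genes passed without Ctrl mouse 3 or without untreated MR-Cardio mouse 2. In 4 genes the untreated groups did not overlap with MR-Cardio lower, and in 0 with MR-Cardio higher, against 4.02% and 2.95% of all named genes. Without the 5 arrays of low spike-in ratio, an alternative chosen after the data were seen, 0 genes passed and the median was −0.10. In that fit 4.96% of all named genes passed, against 13.6% with all arrays. At an unadjusted p under 0.05, with all arrays, 9 of the 36 genes and 6041 of all 21892 named genes passed.

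Few genes of this pathway passed the test for aldosterone within a genotype. In MR-Cardio hearts 1 of the 36 genes was lower with aldosterone and 0 were higher, against 0.484% and 0.95% of all named genes. The difference was below 0 in 34 of the 36, and the median was −0.31. An unadjusted p under 0.05 was found for 19 of the 36 genes and for 3109 of all 21892 named genes. In 0 genes did the MR-Cardio groups with and without aldosterone fail to overlap, against 0.242% of all named genes on the lower side and 0.301% on the higher. The count was 0 without untreated MR-Cardio mouse 2 or MR-Cardio mouse 1 or 4 with aldosterone, and 4 without untreated MR-Cardio mouse 5. The median was −0.21 without MR-Cardio mouse 1 with aldosterone and −0.51 without the 5 arrays of low spike-in ratio. The 3 comparisons described so far share groups of mice, and their values are given side by side for that reason.

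In Ctrl hearts limma called 0 of the 36 genes with aldosterone, as it called 0% of all named genes in each direction. At an unadjusted p under 0.05, 2 of the 36 genes and 1036 of all named genes passed. The median difference was −0.00 and 18 of the 36 values were below 0. The 2 genes were the peroxisomal enzymes Hsd17b4, at 0.18 ± 0.08 (SE; unadjusted p = 0.0267), and Acaa1a, at 0.24 ± 0.11 (unadjusted p = 0.0328). The difference between the aldosterone effects in MR-Cardio and Ctrl hearts was tested as an interaction. It passed in 0 of the 36 genes and in 0% of all named genes in each direction, while 8 of the 36 and 1197 of all named genes had an unadjusted p under 0.05. Its median over the 36 genes was −0.31, with 35 of 36 values below 0.

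**Figure D1:**
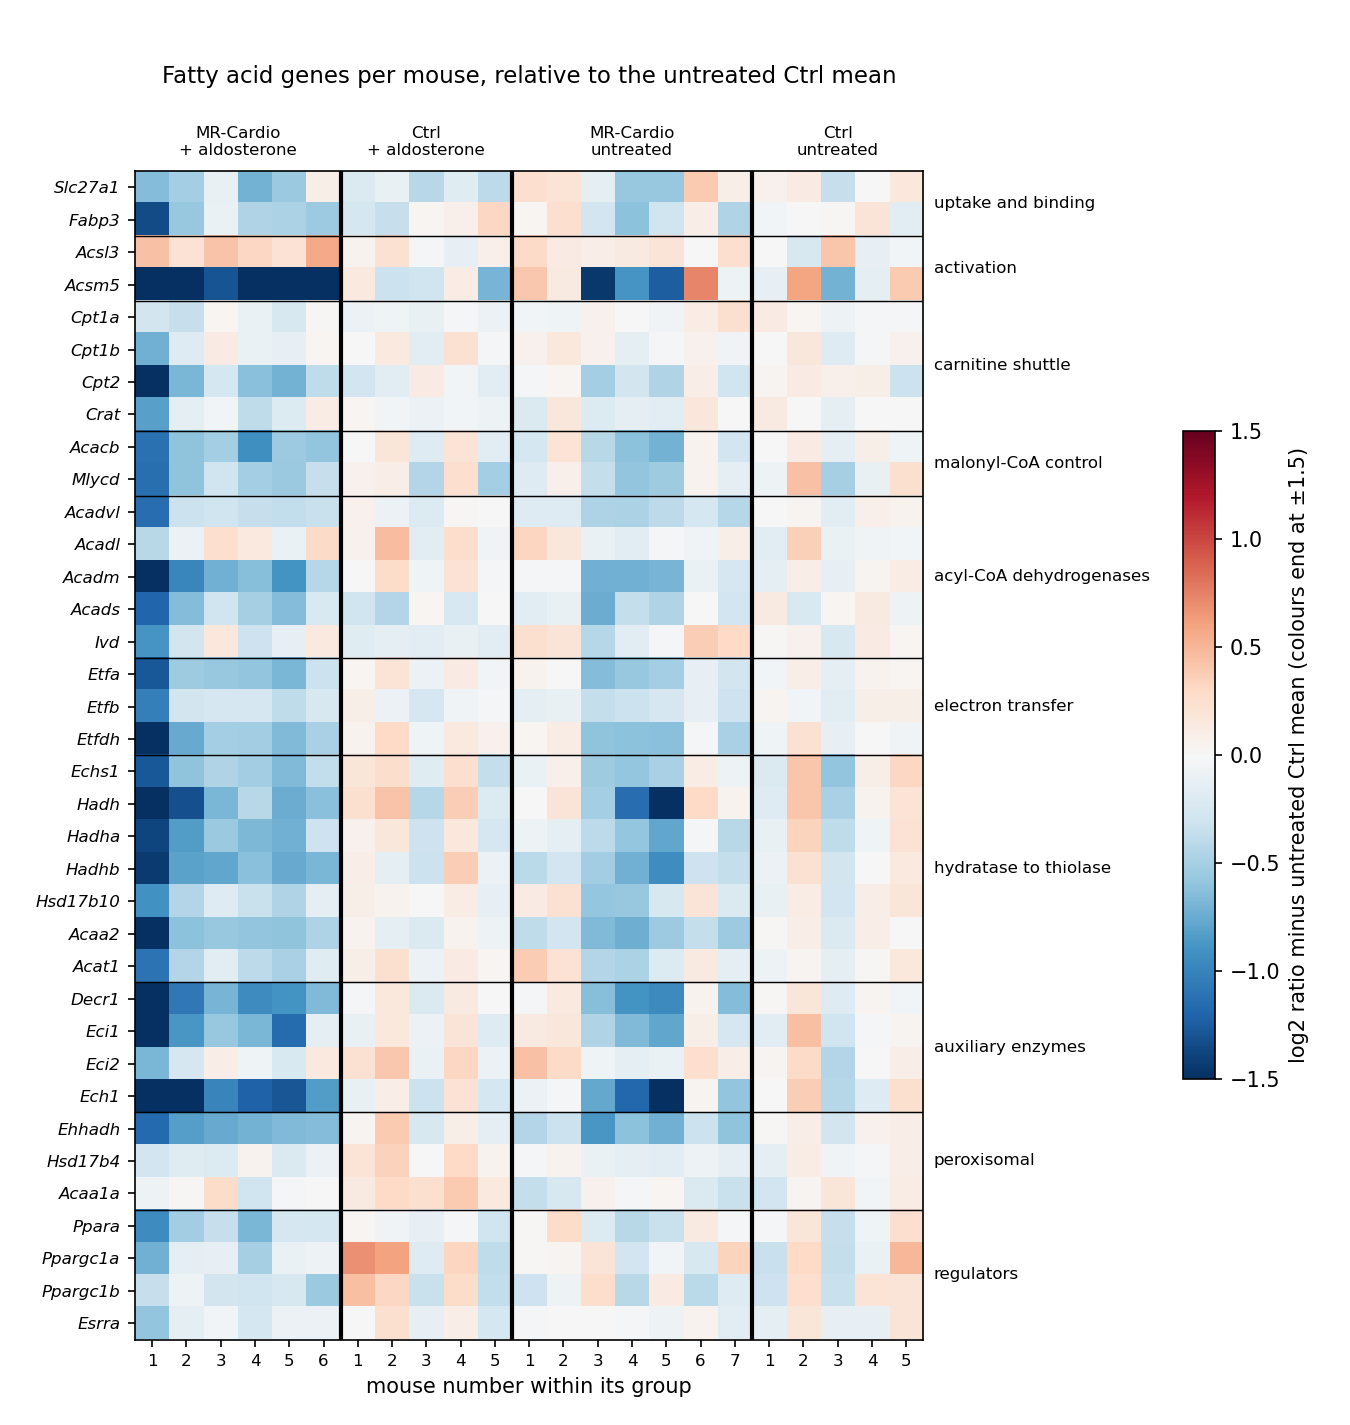
Heat map of the 36 fatty acid genes (rows, grouped by step) in the 23 mice (columns, grouped by genotype and treatment). Colour is the log2 ratio of a mouse minus the mean of the 5 untreated Ctrl mice, blue for lower, with colours ending at ±1.5. The blue block spans the MR-Cardio mice with aldosterone, darkest in mouse 1, and recurs in untreated MR-Cardio mice 3, 4 and 5 and, paler, in mouse 7.

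Uptake and binding was represented by 2 genes. Fabp3, the fatty acid binding protein of heart cytosol, had log2 ratios of 0.43 to 1.68 (median 1.27) in MR-Cardio mice with aldosterone, against 1.51, 1.44, 1.80, 1.85 and 2.08 in Ctrl mice with aldosterone. The groups overlapped, and Fabp3 was lower by a log2 difference of −0.54 ± 0.18 (SE; 1.45-fold lower, adjusted p = 0.0326). That call was lost without MR-Cardio mouse 1 with aldosterone, without any one of Ctrl mice 3, 4 and 5 with aldosterone, with the spike-in ratio as a covariate and when the 2 groups were fitted alone. Slc27a1, a fatty acid transport protein of the cell surface, differed by −0.15 ± 0.18 (adjusted p = 0.588). In ventricle RNA of this kind, a lower share of a cell type and less RNA per cell cannot be told apart, for this gene and for those that follow.

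Activation to acyl-CoA was represented by a pair of genes that went in opposite directions. Acsm5, a mitochondrial acyl-CoA synthetase of medium-chain acids, had ratios of −4.23 to −2.86 (median −3.35) in MR-Cardio mice with aldosterone, against −1.42, −1.88, −1.87, −1.45 and −2.26 in Ctrl mice with aldosterone. The groups did not overlap, and the log2 difference was −1.65 ± 0.35 (3.15-fold lower, adjusted p = 0.00155), the largest among the 36 genes in that comparison. Untreated MR-Cardio mice had −3.02 to −0.83 (median −1.64), against −1.69, −0.98, −2.28, −1.72 and −1.18 in untreated Ctrl mice. These untreated groups overlapped widely (−0.34 ± 0.34, adjusted p = 0.569). Acsm5 was the gene called lower by aldosterone within MR-Cardio hearts, with a log2 difference of −1.53 ± 0.32 (2.88-fold lower, adjusted p = 0.0184). Untreated mouse 3 lay within the range of the treated group, and the call was lost without untreated MR-Cardio mouse 2, without MR-Cardio mouse 1 or 4 with aldosterone, and when the MR-Cardio groups were fitted alone.

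Acsl3, a long-chain acyl-CoA synthetase of the endoplasmic reticulum and lipid droplets, was the gene called higher. Its ratios were −1.93 to −1.58 (median −1.78) in MR-Cardio mice with aldosterone, against −2.10, −1.92, −2.17, −2.28 and −2.08 in Ctrl mice with aldosterone. The groups overlapped only at their edges, and the log2 difference was 0.32 ± 0.10 (1.25-fold higher, adjusted p = 0.0199). The call was lost without Ctrl mouse 4 with aldosterone, without the arrays of low spike-in ratio, with the spike-in ratio as a covariate and after quantile normalization. The difference was 0.28 ± 0.12 without those arrays and 0.29 ± 0.11 with the covariate.

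Of the 4 genes of the carnitine shuttle 1 was lower in MR-Cardio hearts when both genotypes had aldosterone. Cpt1b, the muscle form of the enzyme that commits acyl groups to mitochondria, had 1.12 to 1.97 (median 1.74) in MR-Cardio mice with aldosterone, against 1.84, 1.99, 1.69, 2.07 and 1.83 in Ctrl mice with aldosterone. It had 1.70 to 2.00 (median 1.91) in untreated MR-Cardio mice, against 1.84, 2.01, 1.65, 1.82 and 1.91 in untreated Ctrl mice. The groups overlapped in both cases, and the differences were −0.20 ± 0.11 with aldosterone (adjusted p = 0.215) and 0.02 ± 0.11 without (adjusted p = 0.942). Cpt2, which returns the acyl group to coenzyme A inside the mitochondrion, was lower. Its ratios were 0.71 to 1.98 (median 1.58) in MR-Cardio mice with aldosterone, against 1.95, 2.08, 2.36, 2.19 and 2.08 in Ctrl mice with aldosterone. One MR-Cardio mouse reached the range of Ctrl mice, and Cpt2 differed by −0.59 ± 0.17 (1.51-fold lower, adjusted p = 0.0136), a call lost when the 2 groups were fitted alone. Crat, a carnitine acetyltransferase, differed by −0.21 ± 0.12 (adjusted p = 0.227). Cpt1a, the liver form of Cpt1b, differed by −0.08 ± 0.07 (adjusted p = 0.463), but its 2 probes gave 0.17 and −0.33, so the gene's mean hides opposite directions. With the more variable probe alone Cpt1a passed as lower (−0.33, adjusted p = 0.0128).

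Malonyl-CoA is the inhibitor of the carnitine entry step, and its making and breaking were each represented by 1 gene. Acacb, the acetyl-CoA carboxylase that makes malonyl-CoA at mitochondria, had 0.88 to 1.50 (median 1.41) in MR-Cardio mice with aldosterone, against 2.01, 2.19, 1.82, 2.21 and 1.85 in Ctrl mice with aldosterone. The groups did not overlap, and Acacb was lower by −0.72 ± 0.15 (1.65-fold lower, adjusted p = 0.00104). Mlycd, the decarboxylase that removes malonyl-CoA, had a difference of −0.47 ± 0.18 (adjusted p = 0.0669), which did not pass, though it did without Ctrl mouse 3 (adjusted p = 0.047) or 5 (adjusted p = 0.0366) with aldosterone.

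The first dehydrogenation is done by acyl-CoA dehydrogenases of different chain lengths. Of 5 genes, 2 were lower in MR-Cardio hearts when both genotypes had aldosterone. Acadm, the medium-chain enzyme, had 0.03 to 1.60 (median 1.22) in MR-Cardio mice, against 2.01, 2.30, 1.95, 2.25 and 2.00 in Ctrl mice, with no overlap. Its log2 difference was −1.02 ± 0.21 (2.02-fold lower, adjusted p = 0.000993). Acadvl, the very-long-chain enzyme, had 0.57 to 1.41 (median 1.38) in MR-Cardio mice, against 1.78, 1.63, 1.51, 1.73 and 1.72 in Ctrl mice, again with no overlap. Its difference was −0.43 ± 0.12 (1.35-fold lower, adjusted p = 0.0112), a call lost when the 2 groups were fitted alone.

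Neither gene passed in untreated mice. Acadm had 1.30 to 2.01 (median 1.77) in untreated MR-Cardio mice, against 1.89, 2.12, 1.90, 2.07 and 2.14 in untreated Ctrl mice. These groups overlapped, and the difference of −0.36 ± 0.20 did not pass (adjusted p = 0.249). Acadvl had 1.25 to 1.53 (median 1.33) in untreated MR-Cardio mice, against 1.72, 1.76, 1.55, 1.79 and 1.77 in untreated Ctrl mice. Acadvl did not overlap between the untreated groups, yet its difference of −0.34 ± 0.12 had an adjusted p of 0.0508. It passed when the untreated groups were fitted alone (adjusted p = 0.0166), after quantile normalization (0.0381), after scaling by the spike-in slope (0.0162) and with array weights (0.00503). Leaving out Ctrl mouse 3 or MR-Cardio mouse 1 or 2, all untreated, also let it pass. It did not pass with the spike-in ratio as a covariate (adjusted p = 0.0929) or without the arrays of low spike-in ratio (adjusted p = 0.344).

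The remaining dehydrogenases did not pass in any of the comparisons. Acadl, the long-chain enzyme, had 1.88 to 2.57 (median 2.32) in MR-Cardio mice with aldosterone, against 2.35, 2.75, 2.12, 2.56 and 2.23 in Ctrl mice with aldosterone. The ranges overlapped widely, and the difference was −0.10 ± 0.13 (adjusted p = 0.633). The short-chain enzyme Acads differed by −0.40 ± 0.15 (adjusted p = 0.0558), and Ivd, which acts in leucine breakdown, by −0.06 ± 0.16 (adjusted p = 0.814). Acads passed with aldosterone after scaling by the spike-in slope (adjusted p = 0.0262), with array weights (adjusted p = 0.0461), without Ctrl mouse 2 or MR-Cardio mouse 3 or 6, all with aldosterone, and without the arrays of low spike-in ratio (−0.51 ± 0.15, adjusted p = 0.0251).

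Electrons from these dehydrogenases pass through the electron transfer flavoprotein to ubiquinone, and all 3 genes of that path were lower in MR-Cardio hearts when both genotypes had aldosterone. Etfa, its alpha subunit, had 1.00 to 1.94 (median 1.69) in MR-Cardio mice, against 2.30, 2.48, 2.18, 2.39 and 2.24 in Ctrl mice, without overlap. Its difference was −0.71 ± 0.14 (1.64-fold lower, adjusted p = 0.00099). Etfdh, the dehydrogenase that hands the electrons to ubiquinone, had 1.02 to 2.04 (median 1.93) in MR-Cardio mice, against 2.57, 2.82, 2.46, 2.66 and 2.59 in Ctrl mice. Here too the groups were apart, and the difference was −0.84 ± 0.17 (1.79-fold lower, adjusted p = 0.00101). Etfb, the beta subunit, had −0.11 to 0.68 (median 0.65) in MR-Cardio mice, against 1.01, 0.83, 0.67, 0.87 and 0.89 in Ctrl mice. Those ranges touched, and the smaller difference of −0.34 ± 0.11 (1.26-fold lower, adjusted p = 0.0327) was lost under 8 alternatives, 4 of which each left out 1 Ctrl mouse with aldosterone. Without aldosterone the differences of the 3 genes were −0.32 to −0.23 and none passed (limma; Etfa and Etfb had an unadjusted p under 0.05).

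The steps from hydratase to thiolase held 7 genes, and all 7 were lower in MR-Cardio hearts when both genotypes had aldosterone, 6 of them without overlap. Hadha and Hadhb encode the alpha and beta subunits of the mitochondrial trifunctional protein, which carries out these steps on long chains. The pair lies head to head on chromosome 5 of GRCm38.p6, with annotated starts 273 bases apart, so that upstream sequence of one gene is upstream sequence of the other. The window from 250 bases before to 50 bases after the start of Hadhb (chr5:30155003-30155302, plus strand, from RefSeq) is shown because these 2 genes share it. Capitals mark the 228 bases that also lie in the same window of Hadha (chr5:30154931-30155230, minus strand), and the 300 bases hold 60.7% G and C and 24 CpG.
Hadhb: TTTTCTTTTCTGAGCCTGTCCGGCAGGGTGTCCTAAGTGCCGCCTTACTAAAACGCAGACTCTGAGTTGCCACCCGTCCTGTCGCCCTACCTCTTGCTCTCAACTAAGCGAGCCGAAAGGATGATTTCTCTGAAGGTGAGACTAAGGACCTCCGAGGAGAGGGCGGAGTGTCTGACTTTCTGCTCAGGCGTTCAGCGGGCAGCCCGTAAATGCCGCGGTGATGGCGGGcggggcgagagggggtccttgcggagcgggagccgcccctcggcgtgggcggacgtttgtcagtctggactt

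Both genes of this shared upstream region were lower in MR-Cardio than in Ctrl hearts when both genotypes had aldosterone. Hadha had 0.34 to 1.41 (median 1.02) in MR-Cardio mice with aldosterone, against 1.78, 1.88, 1.41, 1.87 and 1.46 in Ctrl mice with aldosterone. Hadhb had 1.16 to 1.96 (median 1.82), against 2.69, 2.45, 2.27, 2.96 and 2.50. Neither gene overlapped between the groups, but for Hadha the highest MR-Cardio mouse (1.407) was nearly level with the lowest Ctrl mouse (1.408). The differences were −0.71 ± 0.17 for Hadha (1.64-fold lower, adjusted p = 0.00436) and −0.83 ± 0.15 for Hadhb (1.78-fold lower, adjusted p = 0.000363). Untreated, Hadha had 0.94 to 1.68 (median 1.33) in MR-Cardio mice, against 1.61, 2.05, 1.34, 1.65 and 1.93 in Ctrl mice, and Hadhb had 1.66 to 2.31 (median 2.19), against 2.50, 2.82, 2.31, 2.58 and 2.73. Hadha overlapped between the untreated groups and did not pass (−0.34 ± 0.17, adjusted p = 0.185). Hadhb did not overlap and was lower by −0.50 ± 0.15 (1.42-fold lower, adjusted p = 0.0239). This call was lost without Ctrl mouse 2, Ctrl mouse 5 or untreated MR-Cardio mouse 5, and without the arrays of low spike-in ratio, where the difference was −0.48 ± 0.18 (adjusted p = 0.14).

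Acaa2, the mitochondrial thiolase that ends the cycle, was lower in MR-Cardio hearts with and without aldosterone. It had −0.05 to 0.98 (median 0.85) in MR-Cardio mice with aldosterone, against 1.51, 1.31, 1.23, 1.51 and 1.38 in Ctrl mice with aldosterone. Untreated MR-Cardio mice had 0.72 to 1.16 (median 0.91), against 1.46, 1.55, 1.24, 1.54 and 1.45 in untreated Ctrl mice. All MR-Cardio mice lay below all Ctrl mice in each comparison. The differences were −0.66 ± 0.14 with aldosterone (1.58-fold lower, adjusted p = 0.00134) and −0.50 ± 0.13 without (1.42-fold lower, adjusted p = 0.0154). The untreated call was lost without the arrays of low spike-in ratio (−0.39 ± 0.15, adjusted p = 0.171).

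Echs1, the short-chain enoyl-CoA hydratase, had −0.14 to 0.77 (median 0.58) in MR-Cardio mice with aldosterone, against 1.32, 1.41, 0.95, 1.39 and 0.78 in Ctrl mice with aldosterone. The highest MR-Cardio mouse lay just below the lowest Ctrl mouse, and Echs1 was lower by −0.68 ± 0.19 (1.6-fold lower, adjusted p = 0.0128). Hadh, the dehydrogenase of shorter hydroxyacyl chains, had −0.72 to 0.64 (median 0.34) in MR-Cardio mice with aldosterone, against 1.30, 1.48, 0.63, 1.43 and 0.85 in Ctrl mice with aldosterone. Its groups touched at 1 mouse each, and the difference was −1.01 ± 0.31 (2.01-fold lower, adjusted p = 0.0215), a call lost without MR-Cardio mouse 1, without Ctrl mouse 2 or without Ctrl mouse 4, all with aldosterone. In untreated MR-Cardio mice Hadh spread from −0.51 to 1.36 (median 1.05), and the 2 mice below 0 were mice 4 and 5.

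Acat1 and Hsd17b10 complete this step, and both also act in isoleucine breakdown. Acat1, a thiolase that acts on acetoacetyl-CoA, had 0.27 to 1.23 (median 0.97) in MR-Cardio mice with aldosterone, against 1.47, 1.63, 1.30, 1.51 and 1.41 in Ctrl mice with aldosterone. The ranges were apart by a small margin, and Acat1 was lower by −0.54 ± 0.16 (1.46-fold lower, adjusted p = 0.0149). Hsd17b10, a hydroxyacyl-CoA dehydrogenase, had −0.22 to 0.55 (median 0.31) in MR-Cardio mice with aldosterone, against 0.78, 0.75, 0.69, 0.80 and 0.57 in Ctrl mice with aldosterone. Its groups did not overlap, but the difference of −0.44 ± 0.15 (1.36-fold lower, adjusted p = 0.0402) lost its call under 11 alternatives, which included leaving out any one of Ctrl mice 1 to 4 or MR-Cardio mice 1, 2, 4 and 5, all with aldosterone. With the spike-in ratio as a covariate these 4 genes did not pass, at differences of −0.60 ± 0.21 for Echs1, −0.95 ± 0.35 for Hadh, −0.31 ± 0.15 for Hsd17b10 and −0.43 ± 0.16 for Acat1.

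Chains with double bonds need auxiliary enzymes, and 3 of those 4 genes were lower in MR-Cardio hearts when both genotypes had aldosterone. Ech1, a dienoyl-CoA isomerase, had −0.18 to 1.06 (median 0.64) in MR-Cardio mice, against 1.78, 1.99, 1.56, 2.10 and 1.63 in Ctrl mice. Decr1, a dienoyl-CoA reductase, had 0.46 to 1.33 (median 1.07), against 1.97, 2.16, 1.78, 2.13 and 2.00. Neither gene overlapped between the groups, and the differences were −1.25 ± 0.26 for Ech1 (2.38-fold lower, adjusted p = 0.00128) and −0.98 ± 0.19 for Decr1 (1.98-fold lower, adjusted p = 0.000662). Eci1, an enoyl-CoA isomerase, had 0.08 to 1.96 (median 1.32) in MR-Cardio mice, against 1.99, 2.26, 2.02, 2.29 and 1.91 in Ctrl mice. Its ranges touched, and the difference was −0.90 ± 0.25 (1.87-fold lower, adjusted p = 0.0104). Eci2, another isomerase, differed by −0.32 ± 0.15 and did not pass (adjusted p = 0.14).

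Untreated mice were widely spread for the auxiliary enzymes. Ech1 had 0.38 to 1.93 (median 1.30) in untreated MR-Cardio mice, against 1.89, 2.26, 1.46, 1.70 and 2.13 in untreated Ctrl mice. Decr1 had 1.04 to 2.14 (median 1.35), against 2.01, 2.17, 1.80, 2.03 and 1.95. For both genes MR-Cardio mice 1, 2 and 6 lay inside the range of Ctrl mice and mice 3, 4, 5 and 7 below it. The differences, −0.59 ± 0.25 for Ech1 (adjusted p = 0.127) and −0.42 ± 0.18 for Decr1 (adjusted p = 0.132), did not pass.

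**Figure D2:**
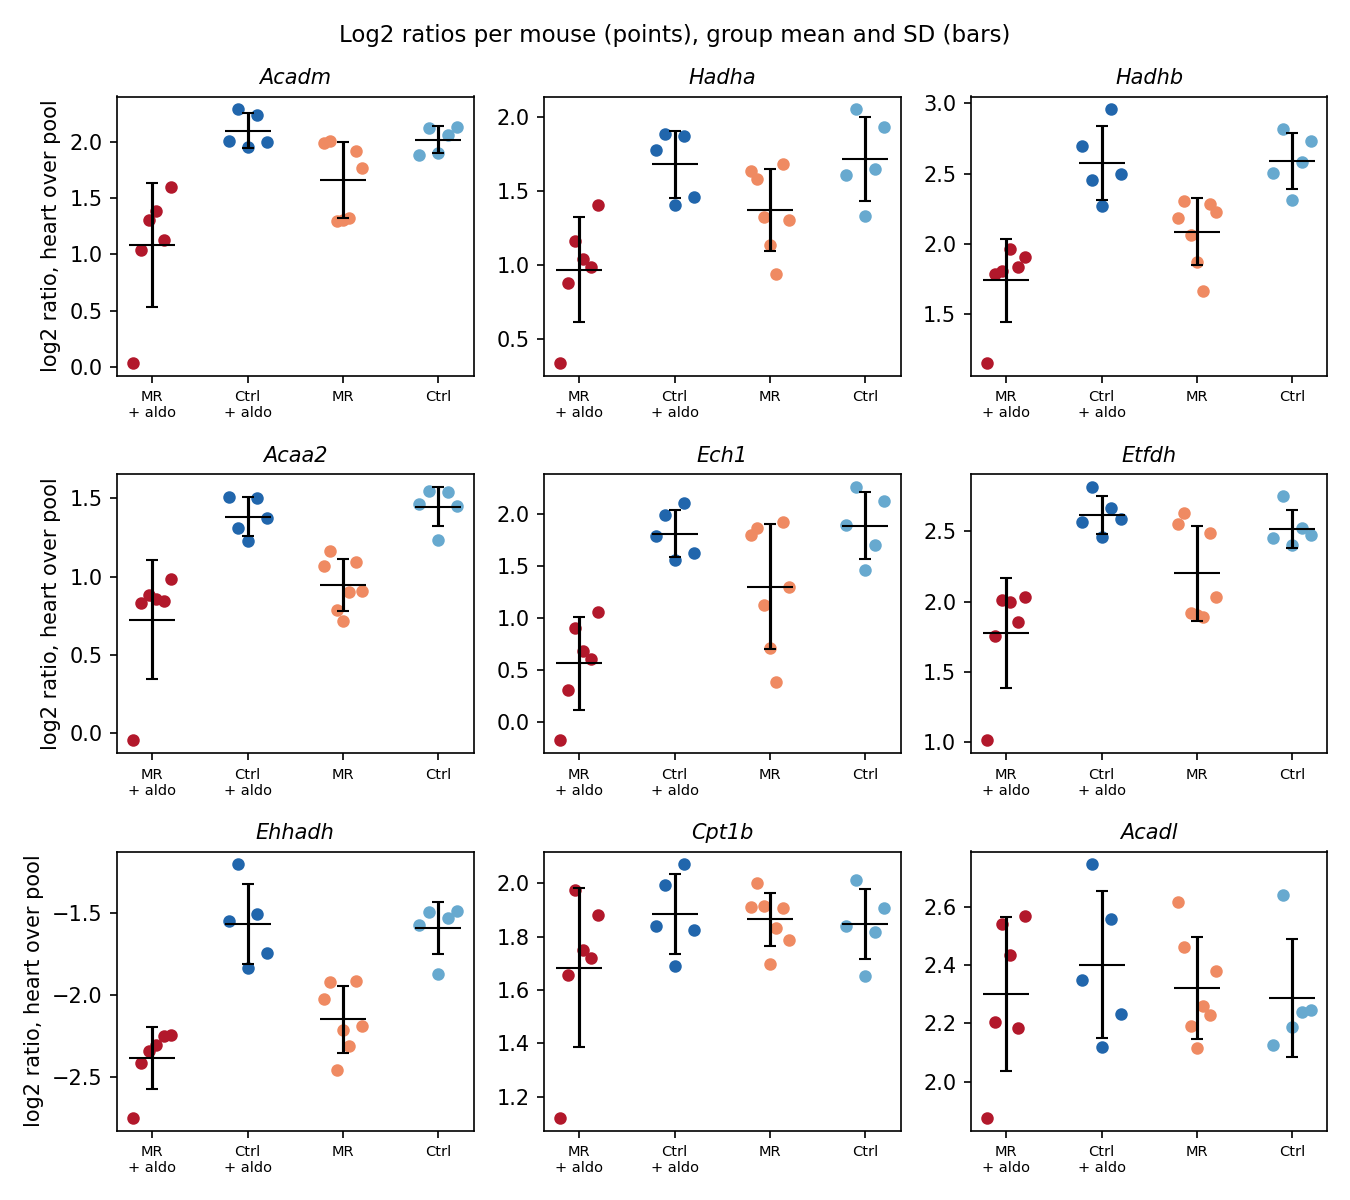
Log2 ratios of heart over the RNA pool for 9 genes, 1 point per mouse, with the group mean and SD as black bars. MR-Cardio groups stand left of the Ctrl group of the same treatment (MR, MR-Cardio; aldo, aldosterone). Acadm, Hadha, Hadhb, Acaa2, Ech1, Etfdh and Ehhadh do not overlap between the genotypes with aldosterone, Hadha only just, while Cpt1b and Acadl do.

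Peroxisomes carry out a beta-oxidation of their own, represented by 3 genes. Ehhadh, their bifunctional hydratase and dehydrogenase, had −2.75 to −2.24 (median −2.32) in MR-Cardio mice with aldosterone, against −1.55, −1.20, −1.84, −1.50 and −1.74 in Ctrl mice with aldosterone. Untreated MR-Cardio mice had −2.46 to −1.92 (median −2.19), against −1.58, −1.49, −1.87, −1.53 and −1.49 in untreated Ctrl mice. The genotypes did not overlap in either comparison. Ehhadh was lower by −0.82 ± 0.12 with aldosterone (1.76-fold lower, adjusted p = 6.19e-05) and by −0.56 ± 0.12 without (1.47-fold lower, adjusted p = 0.00323). The untreated call did not hold without the arrays of low spike-in ratio (−0.45 ± 0.14, adjusted p = 0.0711).

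Ehhadh and Acsm5 lay far below the pool, as liver genes did. All 10 liver markers, from a tissue of the pool, were lower in MR-Cardio hearts, with a median difference of −0.83 with aldosterone and −0.92 without. Their mean ratio was −5.18 to −4.58 in MR-Cardio mice with aldosterone, against −3.98 to −3.89 in Ctrl mice with aldosterone. It was −4.99 to −4.61 in untreated MR-Cardio mice, against −3.99 to −3.78 in untreated Ctrl mice. The part of this shift in the values of Ehhadh, Acsm5 and the other fatty acid genes, all ratios over a pool that holds liver, was not tested. For aldosterone within MR-Cardio hearts, where Acsm5 was called, the liver markers had a median difference of −0.01 and 0 of 10 passed (limma; 0 of 10 also at an unadjusted p under 0.05).

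Hsd17b4, the other bifunctional enzyme of peroxisomes, had −0.64 to −0.30 (median −0.54) in MR-Cardio mice with aldosterone, against −0.15, −0.01, −0.35, −0.06 and −0.29 in Ctrl mice with aldosterone. The groups overlapped at mouse 4 of the MR-Cardio group, and Hsd17b4 was lower by −0.34 ± 0.07 (1.26-fold lower, adjusted p = 0.00196). The peroxisomal thiolase Acaa1a differed by −0.26 ± 0.10 and did not pass (adjusted p = 0.0667), though it did without MR-Cardio mouse 3 with aldosterone (adjusted p = 0.0241).

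Of the 4 regulators 1 was lower in MR-Cardio hearts when both genotypes had aldosterone. Ppara, the gene of PPAR-alpha, had −0.64 to 0.06 (median −0.13) in MR-Cardio mice with aldosterone, against 0.33, 0.24, 0.17, 0.28 and 0.00 in Ctrl mice with aldosterone. The groups overlapped through the Ctrl mouse near 0, and Ppara was lower by −0.40 ± 0.14 (1.32-fold lower, adjusted p = 0.0376). That call was lost under 11 alternatives, among them leaving out any one of Ctrl mice 1 to 4 or MR-Cardio mice 1, 2 and 4, all with aldosterone. The 3 probes of Ppara gave −0.49, −0.57 and −0.16. Untreated MR-Cardio mice had −0.11 to 0.57 (median 0.27), against 0.28, 0.48, −0.05, 0.24 and 0.56 in untreated Ctrl mice, ranges that coincided (−0.08 ± 0.14, adjusted p = 0.758).

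Ppargc1a, the gene of PGC-1-alpha, had 0.45 to 1.10 (median 1.04) in MR-Cardio mice with aldosterone, against 1.86, 1.78, 0.97, 1.49 and 0.79 in Ctrl mice with aldosterone. The Ctrl mice were widely spread and the groups overlapped, so the difference of −0.49 ± 0.20 did not pass (adjusted p = 0.0771). Its 2 probes gave −0.26 and −0.71 and, with the more variable probe alone, Ppargc1a passed (adjusted p = 0.0129), as it did without Ctrl mouse 3 (adjusted p = 0.0468) or 5 (adjusted p = 0.023) with aldosterone. Untreated, it had 0.88 to 1.50 (median 1.18) in MR-Cardio mice, against 0.84, 1.47, 0.82, 1.07 and 1.67 in Ctrl mice, with a difference of 0.00 ± 0.19 (adjusted p = 0.999). The related coactivator gene Ppargc1b differed by −0.37 ± 0.17 with aldosterone (adjusted p = 0.111, or 0.0453 without Ctrl mouse 5 with aldosterone), and Esrra, which encodes a nuclear receptor partner of these coactivators, by −0.19 ± 0.10 (adjusted p = 0.193).

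**Figure D3:**
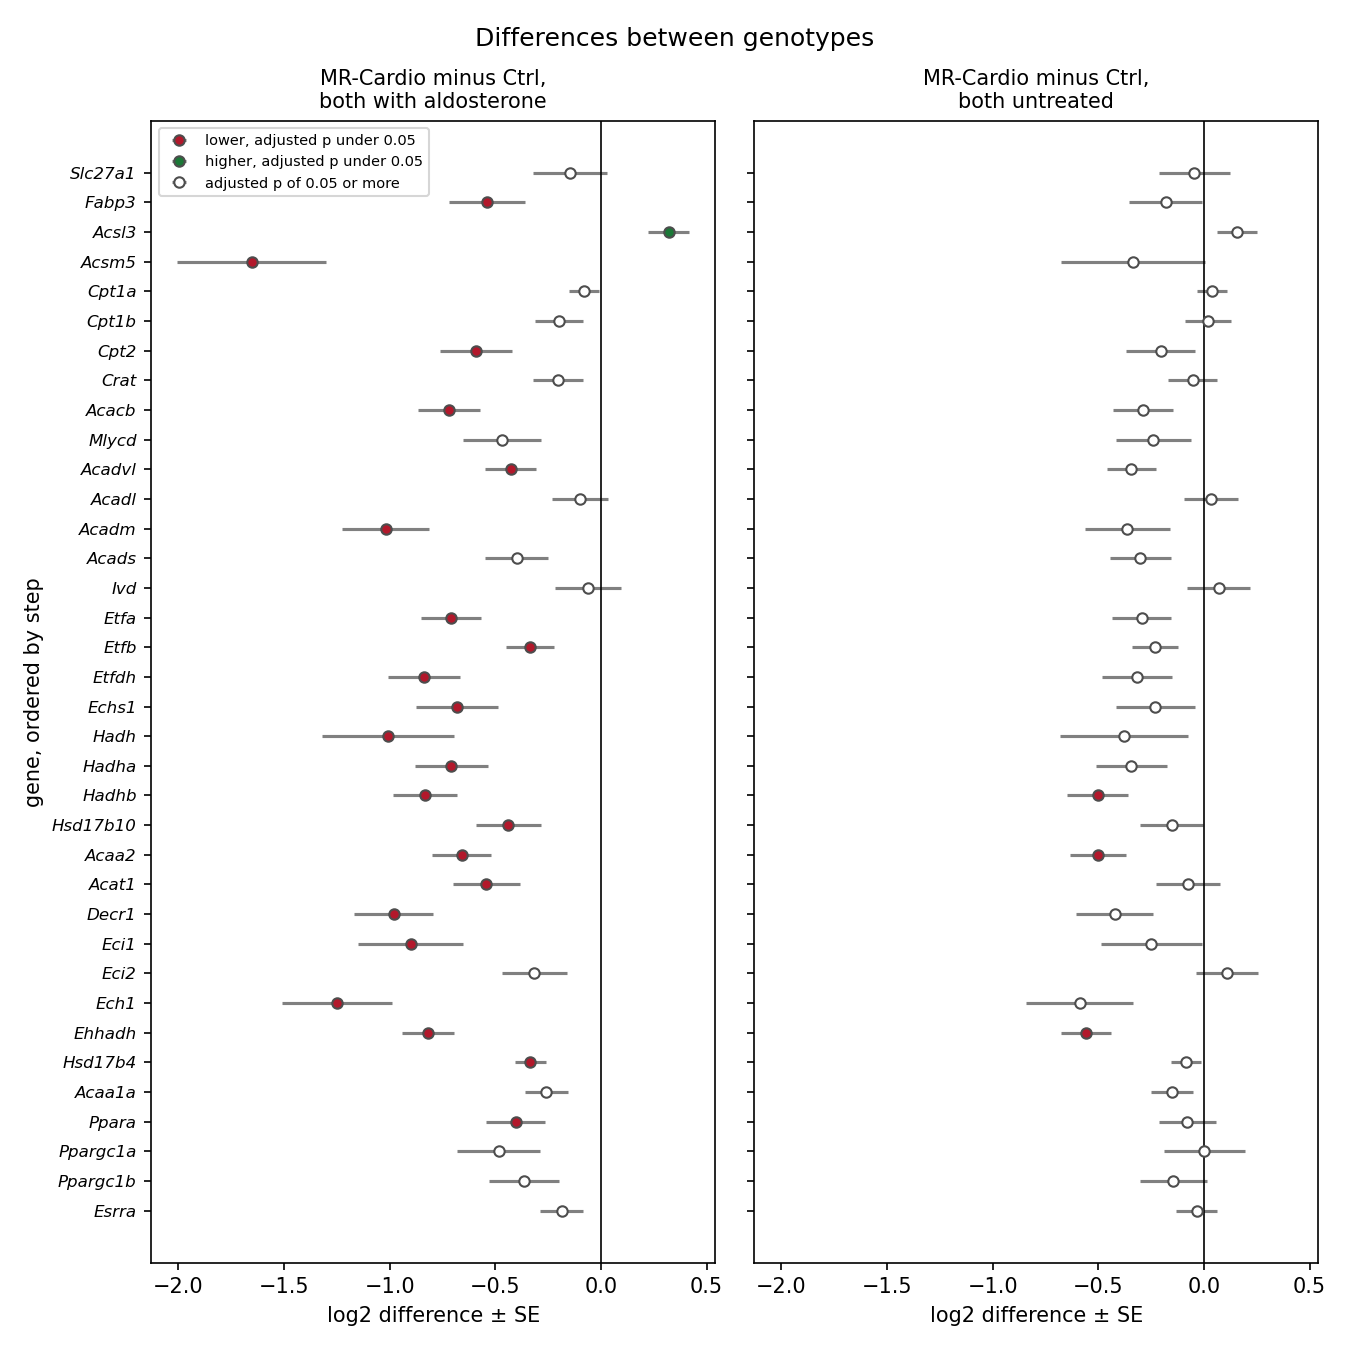
Log2 differences between genotypes ± SE for the 36 genes in order of step, with aldosterone on the left and untreated on the right. Filled points passed an adjusted p of 0.05 (red lower, green higher). On the left 22 red points and 1 green point are seen, and on the right 3 red points.

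The 19 mitochondrial oxidation enzymes, from the acyl-CoA dehydrogenases through the electron transfer flavoprotein to the auxiliary enzymes, held 15 of the 22 genes called lower with aldosterone, and 12 of the 15 that did not overlap. Their median difference was −0.68 with aldosterone in both genotypes and −0.30 in untreated mice. For aldosterone within MR-Cardio hearts it was −0.37, and within Ctrl hearts 0.01. The 2 comparisons between genotypes share no mouse. Across the 36 genes their log2 differences correlated (Pearson's r = 0.79, Spearman's rho = 0.85), as did those of all 21892 named genes (0.80 and 0.71). These are correlations across genes, which are not independent replicates, and the spike-in slope that follows genotype is common to both comparisons. The difference was below 0 in both in 29 of the 36 genes, and more negative with aldosterone than without in 35. The count of 35 is that of the interaction given above, which passed in 0 of the 36 genes.

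Single mice differed in how many of the genes were low. Taken relative to the untreated Ctrl mean, the median over the 36 genes was −1.13, −0.53, −0.29, −0.50, −0.52 and −0.28 in MR-Cardio mice 1 to 6 with aldosterone. It was 0.05, 0.16, −0.16, 0.13 and −0.09 in Ctrl mice with aldosterone. It was −0.03, 0.07, −0.42, −0.52, −0.42, 0.06 and −0.21 in untreated MR-Cardio mice 1 to 7, against −0.04, 0.13, −0.19, 0.01 and 0.10 in untreated Ctrl mice. All MR-Cardio mice with aldosterone lay below all Ctrl mice, while untreated MR-Cardio mice 1, 2 and 6 lay within the Ctrl range. Counted as genes below every untreated Ctrl mouse, MR-Cardio mice with aldosterone had 34, 29, 18, 28, 26 and 18 of the 36. Ctrl mice with aldosterone had 3, 2, 10, 1 and 7, and untreated MR-Cardio mice 7, 4, 22, 24, 23, 5 and 18. The same count was not made over all named genes.

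Markers of fibroblasts and genes of hypertrophy were in part higher in MR-Cardio hearts. The mean ratio of 10 fibroblast markers was 1.19 to 3.39 in MR-Cardio mice with aldosterone, against 0.78 to 1.42 in Ctrl mice with aldosterone, with 4 of 10 higher, 0 lower and a median difference of 1.11. It was 1.08, 0.83, 2.90, 2.51, 1.76, 0.70 and 2.38 in untreated MR-Cardio mice 1 to 7, against 0.42 to 1.14 in untreated Ctrl mice. Untreated mice 1, 2 and 6, in which the fatty acid genes lay in the Ctrl range, had the 3 lowest fibroblast values of their group. Their arrays had mean spike-in ratios of 0.19, 0.17 and 0.28, relative to all arrays. Those of mice 3, 4 and 7 were among the arrays of low spike-in ratio (−0.38, −0.50 and −0.34), while that of mouse 5 was not (0.23). The part of the arrays in this split of the untreated mice was not tested. The mean ratio of 9 genes of hypertrophy was 1.96 to 2.66 in MR-Cardio mice with aldosterone, against 1.10 to 1.52 in Ctrl mice with aldosterone, with 5 of 9 higher and 0 lower. In untreated MR-Cardio mice it was 1.10, 0.97, 2.16, 1.99, 2.40, 0.75 and 1.68, against 0.65 to 1.11 in untreated Ctrl mice. Macrophage markers, 8 in all, had a mean of −0.44 to 0.87 in MR-Cardio mice with aldosterone, against −0.45 to −0.08 in Ctrl mice with aldosterone. These ranges overlapped. Between the genotypes 1 of the 8 was higher in MR-Cardio hearts when both had aldosterone, and 0 of 8 when both were untreated (limma). At an unadjusted p under 0.05 the untreated count was 4 of 8, beside 6041 of the 21892 named genes. Between the genotypes with aldosterone 1 of 8 endothelial markers was higher in MR-Cardio hearts and 0 lower, with a median difference of −0.11. Of 7 adipocyte markers 0 were higher and 1 was lower, with a median of 0.07. Of all named genes 14.4% were lower and 10.7% higher between the genotypes with aldosterone, and 7.82% and 5.79% untreated.

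Cardiomyocyte markers, 15 in all with Myh7 also among the hypertrophy genes, had a median difference of −0.17 between the genotypes with aldosterone, with 3 lower and 1 higher. In that comparison 14.4% of all named genes were lower and 10.7% higher. The mean ratio of the cardiomyocyte markers was 1.00 in MR-Cardio mouse 1 with aldosterone and 1.49 or more in every other mouse. In the same mouse 1 the fibroblast and macrophage means were the highest of all mice (3.39 and 0.87). In MR-Cardio mice 2 to 6 with aldosterone the median over the fatty acid genes was −0.53 to −0.28, below that of every Ctrl mouse, and their fibroblast means were 1.19 to 2.51. The part of the cell type markers in the values of the fatty acid genes was not tested.

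**Figure D4:**
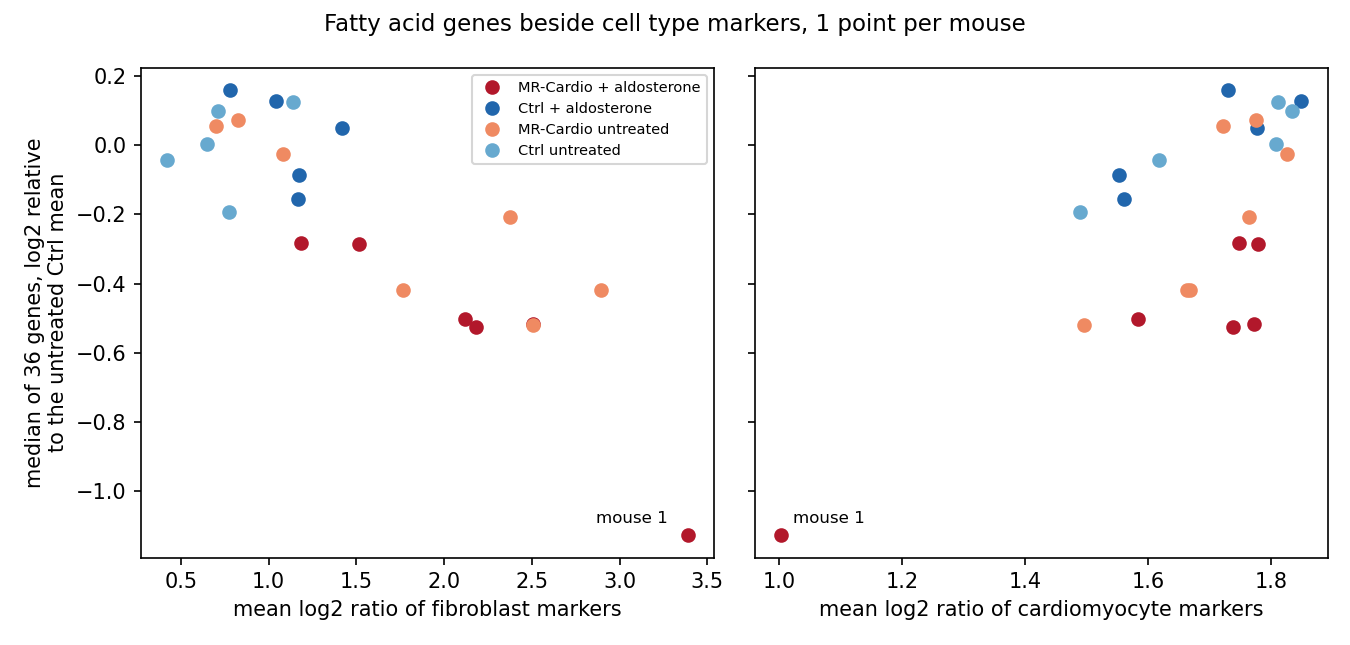
Median of the 36 fatty acid genes in each mouse, as log2 relative to the untreated Ctrl mean, against the mean log2 ratio of fibroblast markers (left) and of cardiomyocyte markers (right), 1 point per mouse. MR-Cardio mouse 1 with aldosterone stands apart at −1.13, and the untreated MR-Cardio mice lie on both sides of −0.2.

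Other genes of energy metabolism were read from lists kept apart from the 36. Of 51 other genes of fatty acid handling, 23 were lower and 3 higher in MR-Cardio hearts when both genotypes had aldosterone, with a median difference of −0.25. In the same comparison 14.4% of all named genes were lower and 10.7% higher. The 8 of the 51 with the smallest p were all lower. Acot2, a mitochondrial acyl-CoA thioesterase, had a mean of 0.12 ± 0.38 in MR-Cardio mice and 1.82 ± 0.25 in Ctrl mice (SD), a difference of −1.69 ± 0.23 (SE; adjusted p = 2.07e-05). Ucp3, a mitochondrial carrier tied to fatty acid use, averaged −0.84 ± 0.29 and 0.85 ± 0.29 and differed by −1.68 ± 0.26 (adjusted p = 7.24e-05). Acad11, another acyl-CoA dehydrogenase, differed by −1.22 ± 0.16 (adjusted p = 1.39e-05). The peroxisomal genes Scp2 (−0.93 ± 0.12), Amacr (−0.71 ± 0.10) and Crot (−0.50 ± 0.07), the lipolysis cofactor Abhd5 (−0.48 ± 0.07) and the thioesterase Acot7 (−0.58 ± 0.09) complete the 8. The 3 higher genes, named after their values were seen, were the thioesterase Acot9 (0.72 ± 0.14), the acyl-CoA synthetase Acsl4 (0.37 ± 0.12) and the peroxisomal oxidase Acox3 (0.20 ± 0.06).

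In untreated hearts 12 of the 51 were lower and 3 higher in MR-Cardio mice, with a median difference of −0.20. Of all named genes 7.82% were lower and 5.79% higher. The smallest adjusted p values among the 51 were those of Acot7 (−0.49 ± 0.09, adjusted p = 0.000699), Abhd5 (−0.35 ± 0.07, adjusted p = 0.00167) and Scp2 (−0.56 ± 0.12, adjusted p = 0.00275). The 3 higher genes, named after their values were seen, were the lipid droplet coats Plin4 (0.63 ± 0.18) and Plin5 (0.72 ± 0.21) and the peroxisomal transporter Abcd2 (0.78 ± 0.23). Within MR-Cardio hearts 3 of the 51 were called lower with aldosterone and 0 higher. They were Ucp3 (−1.14 ± 0.23, adjusted p = 0.0154), the acyl-CoA dehydrogenase Acad12 (−0.46 ± 0.10, adjusted p = 0.0199) and Acad11 (−0.62 ± 0.15, adjusted p = 0.0309). In this comparison 0.484% of all named genes were lower and 0.95% higher. With the MR-Cardio groups fitted alone 0 of all named genes passed, so these 3 calls were lost.

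Partners of the regulators, the pathways downstream of acetyl-CoA and glucose use also held more lower than higher genes when both genotypes had aldosterone. So did all named genes, of which 14.4% were lower and 10.7% higher. Of 15 nuclear receptors and partners 6 were lower and 0 higher (median −0.23), led by Tfam, a factor of mitochondrial DNA (−0.58 ± 0.08, adjusted p = 3.09e-05), and Prkaa2, a catalytic subunit of AMP-activated kinase (−0.40 ± 0.07, adjusted p = 0.000438). Of 17 citric acid cycle genes 8 were lower and 0 higher (median −0.34), led by the succinyl-CoA ligase subunit Suclg2 (−1.17 ± 0.17, adjusted p = 3.47e-05). Of 36 genes of the respiratory chain and ATP synthase 14 were lower and 0 higher (median −0.32), with Atp5a1 of ATP synthase at −0.66 ± 0.13 (adjusted p = 0.000742). Among 16 genes of glucose use 5 were lower and 2 higher (median −0.25). The glycolytic regulator Pfkfb2 was lower (−1.16 ± 0.14, adjusted p = 8.68e-06), while phosphoglycerate kinase Pgk1 (0.63 ± 0.09, adjusted p = 4.51e-05) and hexokinase Hk1 (0.50 ± 0.10, adjusted p = 0.000789) were higher.

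In untreated hearts these 4 lists had 2 lower and 0 higher of 15, 2 and 0 of 17, 7 and 1 of 36, and 1 and 2 of 16, where 7.82% of all named genes were lower and 5.79% higher. Aldosterone within MR-Cardio hearts was called for Pfkfb2 alone among them (−0.69 ± 0.13, adjusted p = 0.01), a call lost with the MR-Cardio groups fitted alone. Within Ctrl hearts it was called for 0 genes of any of the 5 lists (limma). There 4 of the 51 other fatty acid genes and 1 of the 16 glucose genes had an unadjusted p under 0.05.

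**Figure D5:**
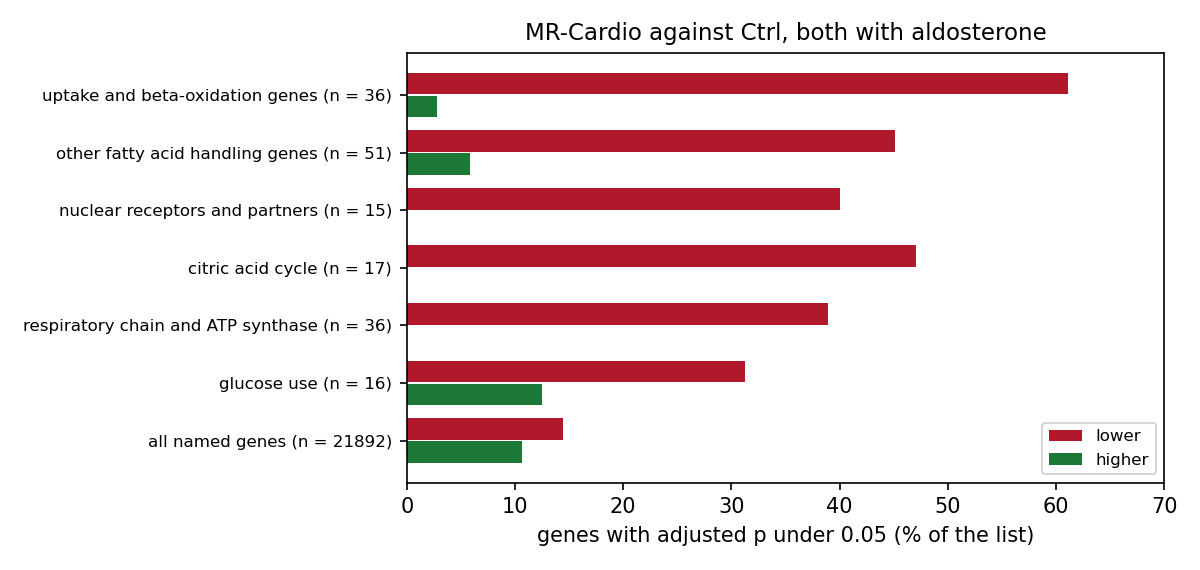
Share of genes in each list that were lower (red) or higher (green) in MR-Cardio than in Ctrl hearts, both with aldosterone, at an adjusted p under 0.05. The 36 uptake and beta-oxidation genes reach 61.1% lower, against 14.4% of all named genes.

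Promoter windows of 300 bases were found in the RefSeq table (GRCm38.p6) for 29 of the 36 genes, 31 windows in all. Searched on both strands, TCAAGGTCA, the element bound by estrogen-related receptors, was in 0 of these windows and in 0.423% of 32851 windows of all genes. Its inner half-site AGGTCA, whose matches include any of the longer element, was in 5 windows (Acadm, Acacb, Echs1, Acadvl and Cpt1a), 16.1% of them, against 16.3% of all. A direct repeat of AGGTCA with 1 base between, the form bound by PPAR-alpha with its partner, was in 0, against 0.0396% of all windows. These counts describe letters in short windows and no binding.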

How the data were processed

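Each deposited array holds log2 values, heart RNA (Cy5) over an RNA pool (Cy3), 1 array per mouse and 1 dye orientation, made by the authors from Agilent Feature Extraction 10.7.3.1 output, per the submitters' processing notes; further normalization is not given in the sources used here. No label states base or direction; both were read off the spike-in controls and known heart and brain genes. All 23 columns belonged to a sample, and 0 did not. Of 39485 lines 56 control probes were removed, and of 39429 probes 30625 had 1 gene symbol, 0 several and 8804 none. Probes of a gene were averaged, giving 21892 genes with 0 missing values. A linear model with the 4 groups as a factor was fitted to all genes with limma 3.58.1 (R 4.3.3, lmFit and eBayes), and p-values were adjusted by Benjamini-Hochberg over all named genes, with a threshold of 0.05. The script was tested on simulated data. Arrays give no counts, so their number limits the precision.

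The 36 genes and the other lists were chosen with earlier results of these data known. Every one of the 36 is accounted for, and of each other list the 8 genes of smallest p past the threshold in a comparison could be named. Alternatives covered median centring, quantile normalization, the spike-in slope and offset, the choice of probe, the groups fitted, limma's trend and robust options, array weights, a filter on dim genes, a replicate block and leaving out each mouse. Leaving out 5 arrays of low spike-in offset was added after the data were seen. The sample numbers did not pair the mice. Where nothing else ties the samples to separate litters, p-values measure the spread between these mice.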

Additional observations from a re-analysis of the deposited data

Results flagged for a closer look

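In 15 of 144 sets of values (36 genes in 4 groups) the highest or lowest mouse stood apart from the rest of its group by Dixon's criterion, where chance alone flags about 1 set in 20. Of these, 12 were low values of MR-Cardio mouse 1 with aldosterone. Its log2 ratio was 1.12 for Cpt1b, 0.71 for Cpt2 and −0.33 for Mlycd. It was 0.57 for Acadvl, 0.034 for Acadm, −0.11 for Etfb and 1.02 for Etfdh. It was −0.14 for Echs1, 1.16 for Hadhb, −0.046 for Acaa2, 0.27 for Acat1 and −2.75 for Ehhadh. In the same mouse the mean of the cardiomyocyte markers was the lowest of all mice (1.00) and that of the fibroblast markers the highest (3.39), and their part in these values was not tested.

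The other flags were in untreated Ctrl mice. Cpt2 was low in mouse 5 (1.91), Acadl was high in mouse 2 (2.64) and Ehhadh was low in mouse 3 (−1.87).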

How the results depend on the processing

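Called genes kept their direction in every alternative that tested them. There the call was kept 535 times and lost 59 times, and 13 of the 23 calls with aldosterone in both genotypes were kept each time. Acsm5, Ehhadh and Acsl3 were not tested once the genes of lowest ratio were left out. That count of 23 was 15 with the spike-in offset as a covariate and 17 to 25 when single mice were left out. The count of 3 in untreated hearts was 6 with array weights, 0 without the 5 arrays of low spike-in offset, and 2 to 5 when single mice were left out. Fewer of all named genes passed too, 19.39% against 25.06% with that covariate, and 4.96% against 13.6% untreated without those arrays. The count of 1 for aldosterone within MR-Cardio hearts was 0 with the MR-Cardio groups fitted alone, where 0 of all named genes passed. It was 0 without the genes of lowest ratio, and 0 to 4 when single mice were left out. With the sample number as a replicate block the counts were 24, 3 and 0; deviations of same-numbered mice correlated at −0.16 to 0.28, so the numbers do not pair mice. Except as stated, the cause of a lost call was not tested. Ratios without per-spot signals leave the distance of dim genes from background unknown.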
